A study of Macaca mulatta with 6 samples.

Results

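The matrix metalloproteinases (MMP), the membrane-bound ADAM and secreted ADAMTS proteases and the tissue inhibitors of metalloproteinases (TIMP) were taken from the count table by symbol, as the genes whose symbol begins with MMP, TIMP or ADAM followed by a digit, or with ADAMTS. The rule found 67 of 17795 genes, namely 23 MMP, 19 ADAM, 22 ADAMTS or ADAMTS-like and 3 TIMP genes. Some family genes, TIMP3 and ADAMTS4 among them, have no row under these symbols in the count table, so the families are not complete here. The 7 ADAMs known from germ cells or the epididymis (ADAM2, ADAM7, ADAM18, ADAM20, ADAM21, ADAM30 and ADAM32) were kept apart from the other 60 genes. Bulk RNA sequencing libraries came from cultured spermatogonial stem cells (SSCs) of the rhesus monkey, the stem cells of sperm formation, which were grown in droplets of a basement membrane gel. The SSC PDGF+ group held 3 libraries, titled PDGF in the labels, from medium with human platelet-derived growth factor (PDGF). The SSC PDGF- group held 3 libraries, titled PDGFNO, from cultures without it, and the study's culture medium otherwise held serum, GDNF, EGF, LIF, bFGF and Wnt3a. No genotype, donor, age or day of culture is given for these libraries, the labels name the tissue only as testis, and in both groups replicate 1 is of batch 1 and replicates 2 and 3 are of batch 2.

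MMPs cleave collagens, gelatins and other matrix proteins, and some are secreted while the membrane-type enzymes are held at the cell surface. ADAM proteases release the outer parts of membrane proteins such as growth factor precursors, and ADAMTS proteases cut proteoglycans, procollagens and other secreted proteins. Most are made as inactive precursors, TIMPs block the active site of MMPs and of some ADAM and ADAMTS enzymes, and in the testis these proteins are known from the remodelling of the peritubular matrix and of contacts between Sertoli and germ cells.

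The catalytic members share a zinc-binding motif in which 3 histidines hold the metal and a glutamate takes part in cleavage. The coding bases of this motif are shown for 8 members on which the results turn, taken 5′ to 3′ from RefSeq transcripts of the Mmul_10 assembly, with the codons of the glutamate and the 3 histidines in capitals.
MMP1: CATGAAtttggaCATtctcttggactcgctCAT
MMP10: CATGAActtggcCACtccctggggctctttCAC
MMP9: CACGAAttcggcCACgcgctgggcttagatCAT
MMP2: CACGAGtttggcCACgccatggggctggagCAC
MMP14: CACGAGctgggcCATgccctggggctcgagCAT
ADAM12: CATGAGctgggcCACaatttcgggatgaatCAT
ADAMTS1: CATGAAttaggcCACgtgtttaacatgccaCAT
ADAMTS17: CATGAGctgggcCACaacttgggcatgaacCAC
Of 33 bases, ADAM12 and ADAMTS17 shared 28, the most of any pair shown. MMP2 and MMP14 shared 27, and MMP1 and MMP10 shared 24, as did MMP9 and MMP2. The 8 genes were chosen with their calls known, so likeness of these bases cannot be set against the direction of change. The motif, read with a glycine or an asparagine at its eighth codon, was found in 49 of the 63 members with a RefSeq transcript, against 59 of 14989 genes of the table with a coding transcript (0.394%), these 49 included. An asparagine stood there in ADAMTS1, ADAMTS9 and ADAMTS15. The 14 members without a match were the 3 TIMPs, the 5 ADAMTS-like genes, whose products lack a protease domain, ADAM7, ADAM11, ADAM22, ADAM23, ADAM32 and ADAMTS8. Lack of a match to this fixed pattern does not show that a product lacks the zinc site. ADAMTS8 is kept here among the ADAMTS proteases that cut proteoglycans.

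Libraries held 10593805 to 14102697 counts, and the 67 members took 1.02% to 1.09% of them in SSC PDGF+ and 1.25% to 1.44% in SSC PDGF-. The label SSC was set against marker genes. Several defining markers of spermatogonia were close to 0, with DDX4 at a mean of 0.305 normalized counts scaled to library size (CPM) in SSC PDGF+ and 2.13 CPM in SSC PDGF-, DAZL at 0.210 and 1.13 CPM, GFRA1 at 0.118 and 0.539 CPM and no STRA8 count, but ID4 stood at 131 and 163 CPM and FGFR3 at 13.7 and 57.8 CPM, and among spermatid genes TNP1 stood at 30.0 and 296 CPM. Genes of stromal cells were abundant in the same libraries, with COL1A1 at 6841 and 4522 CPM and PDGFRB at 326 and 321 CPM. Markers of several cell types moved with the treatment. Of the 4 tested spermatogonial markers all had negative log2 fold changes and 2 were called lower (50%, beside 10.7% of all tested genes). These were FGFR3 (-2.07, edgeR adjusted p = 0.0189) and DDX4 (-2.72, edgeR adjusted p = 0.0284). ID4 and DAZL were not called (edgeR adjusted p = 0.122 and 0.0688). All 9 tested spermatid markers were lower with PDGF, their list of 11 genes summing to 128 to 179 CPM per library against 655 to 994 CPM. Of 10 genes of peritubular myoid and stromal cells 4 were called lower (40%, beside 10.7% of all tested genes), namely ACTA2, DES, COL3A1 and PDGFRA. The counts of PDGFRA equal those of FIP1L1 in every library, so that call cannot be assigned to PDGFRA. COL1A1 had a positive log2 fold change of 0.60 without a call, and the stromal list summed to 9073 to 13045 CPM against 12360 to 13972 CPM. The epithelial list summed to 35.6 to 51.9 CPM against 87.3 to 121.8 CPM. The Sertoli list summed to 1341 to 1786 CPM against 780 to 1028 CPM, but nearly all of it was CLU. CLU was called higher (1610 and 935 CPM, edgeR adjusted p = 0.0133), WT1 and INHA were not called, and FATE1 had 0 counts against 33. The Leydig list summed to 263 to 329 CPM against 217 to 261 CPM, with no gene called by edgeR, DESeq2 or limma-voom and 1 at an unadjusted p under 0.05. Nearly all of that sum was the STAR row (296 and 234 CPM). Its counts equal those of LSM1 in every library, so these reads cannot be assigned to STAR. Of the leukocyte markers PTPRC and CD3E had no count, but the macrophage marker CD68 stood at 15.8 and 12.9 CPM. CD14 had 45 counts against 51, CD163 had 28 against 29 and CSF1R had 29 against 25. CD68 and CD14 were tested and not called (edgeR adjusted p = 0.372 and 0.530). Of the Leydig cell markers CYP11A1 had no count. The part of these cells in the protease results was not tested, and in bulk RNA fewer cells of a type and less RNA per cell cannot be told apart.

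All CPM values are normalized with TMM factors, and each call rests on edgeR's quasi-likelihood test with a Benjamini-Hochberg adjusted p under 0.05 over all genes tested. Of the 67 members, 5 had no count in any library (ADAM2, ADAM7, ADAMTS20, MMP25 and MMP26), 13 others were too low for the test and 49 were tested. With PDGF 11 members were higher and 10 were lower, which is 42.9% of the tested members, while 18.3% of the 11539 tested genes were called (7.61% higher, 10.7% lower). The higher genes included the interstitial collagenase MMP1, the gelatinase MMP9, the stromelysin MMP10 and the proteoglycan-cutting ADAMTS1 and ADAMTS9, and the lower genes included the gelatinase MMP2, its membrane-bound activator MMP14 and TIMP2. The median log2 fold change was -0.09 over the tested members and 0.02 over all tested genes. In 27 of the 49 members (55.1%) the groups did not overlap, which was so in 37.6% of all tested genes. With the replicate number as a block, 18 members were higher and 19 lower, but 60.1% of all genes were then called (31.1% higher, 29% lower).

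**Figure D1:**
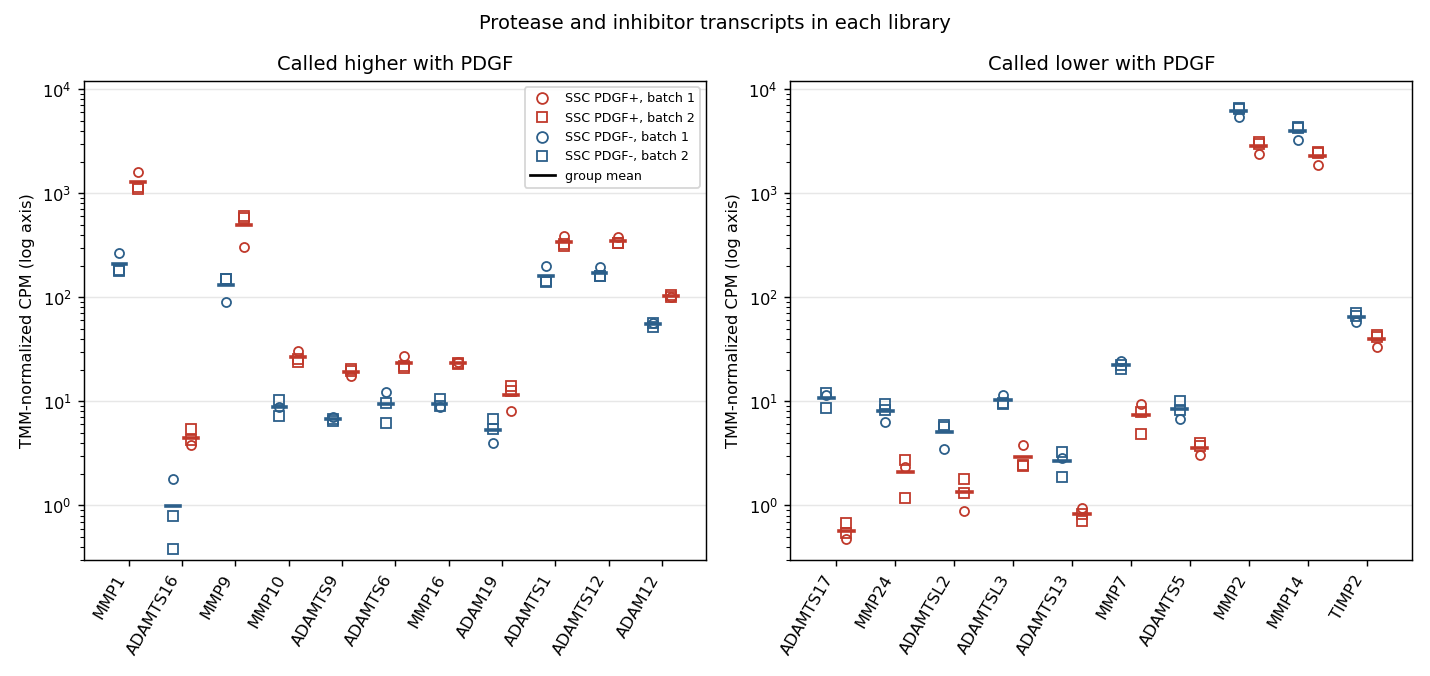
TMM-normalized CPM on a log axis of the 11 members called higher (left) and the 10 called lower (right) in each library, with circles for batch 1, squares for batch 2, bars for group means, red for SSC PDGF+ and blue for SSC PDGF-. In each of the 21 genes the groups do not overlap, and without PDGF the MMP2 and MMP14 points run from 3270 to 6607 CPM.

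Of the collagenases, which cut fibrillar collagen, MMP1 held 1591, 1109 and 1149 CPM in SSC PDGF+ replicates 1, 2 and 3 and 265, 178 and 184 CPM in SSC PDGF-. Every library with PDGF stood above every library without it, and the group means of 1283 ± 267 and 209 ± 48.8 CPM (SD, n = 3 each) differed by a log2 fold change of 2.62 ± 0.22 (SE, edgeR adjusted p = 0.000261). This was the largest increase among the tested members, a fitted fold of 6.14. The collagenase MMP13 was at 4.28 to 5.74 CPM against 2.49 to 4.27 CPM and was not called (log2 fold change 0.54, edgeR adjusted p = 0.224), and MMP8, the neutrophil collagenase, had 2 counts in all.

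The gelatinases, which cut denatured collagen and type IV collagen, moved in opposite directions. MMP9 was at 307, 600 and 574 CPM with PDGF and at 91.1, 151 and 149 CPM without it, with no overlap. MMP9 was called higher (log2 fold change 1.92 ± 0.30, edgeR adjusted p = 0.00395). MMP2, the member with the most counts, was at 2393, 3110 and 3005 CPM with PDGF and at 5392, 6476 and 6607 CPM without it. The lowest library without PDGF thus held more MMP2 than the highest with it, and the log2 fold change was -1.12 ± 0.14 (edgeR adjusted p = 0.0017). In both groups replicate 1 was the lowest for MMP9 and for MMP2, and the log2 difference within batch 1 and within batch 2 was 1.75 and 1.97 for MMP9 and -1.17 and -1.10 for MMP2.

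Among the stromelysins and matrilysins, MMP10, a stromelysin with broad matrix substrates that also activates other MMPs, was at 30.5, 25.6 and 24.0 CPM with PDGF and at 8.87, 7.28 and 10.3 CPM without it. The groups did not overlap (log2 fold change 1.60 ± 0.20, edgeR adjusted p = 0.00155). Its close relative MMP3, at 126 CPM per kilobase of exon against 15.3 for MMP10 in SSC PDGF+, was at 293, 236 and 233 CPM against 264, 212 and 208 CPM. These ranges overlapped, the log2 fold change was 0.16 ± 0.16 and the gene was not called (edgeR adjusted p = 0.528), although it was called higher with the replicate block (adjusted p = 0.00611). MMP7, the matrilysin of epithelial cells, was at 9.52, 7.98 and 4.88 CPM with PDGF and at 24.6, 20.4 and 22.3 CPM without it, and the groups did not overlap (log2 fold change -1.59 ± 0.26, edgeR adjusted p = 0.00477). MMP11 was at 32.7 to 49.9 CPM against 49.6 to 76.8 CPM and was not called (edgeR adjusted p = 0.0988). It was called lower with the block (adjusted p = 5.68e-07) and, without a block, when SSC PDGF- replicate 1 was left out (edgeR adjusted p = 0.0247). MMP12, the macrophage elastase, was too low for the test, with 34 counts against 8, a ratio of 3.41 in favour of SSC PDGF+ (exact 95% bounds 1.55 and 8.53, counting error alone).

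Of the membrane-type MMPs, MMP14 activates the MMP2 precursor at the cell surface. It was at 1869, 2491 and 2461 CPM with PDGF and at 3270, 4225 and 4380 CPM without it, and the groups did not overlap. The log2 fold change was -0.80 ± 0.16 (edgeR adjusted p = 0.0125), and the call was lost without SSC PDGF- replicate 2 or without replicate 3 of that group, where the adjusted p reached 0.058. MMP24 was at 2.36, 1.17 and 2.70 CPM against 6.32, 9.48 and 8.23 CPM (log2 fold change -1.93 ± 0.34, edgeR adjusted p = 0.00698). MMP16, which like MMP14 is anchored by a transmembrane segment, went the other way, at 24.1, 23.2 and 22.8 CPM against 8.87, 10.6 and 9.11 CPM (log2 fold change 1.29 ± 0.17, edgeR adjusted p = 0.00181). MMP15 and MMP17 had negative log2 fold changes of -1.44 and -1.47 without a call (edgeR adjusted p = 0.0668 and 0.113), and both were called lower with the block (0.000131 and 0.0179). DESeq2, without a block, called MMP15 lower (adjusted p = 0.00947) but not MMP17 (0.0528).

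Of the other MMPs, MMP19, MMP23 and MMP28 were tested by edgeR and none was called, with 1 at an unadjusted p under 0.05 and none by DESeq2 or limma-voom. With the replicate block all 3 were called lower, but MMP23 (adjusted p = 0.0388) was not with batch as a term (0.0778) or with replicates 2 and 3 summed and batch as a term (0.0617). MMP19 was at 43.7 to 54.0 CPM against 59.4 to 72.8 CPM. The enamel protease MMP20 had 3 counts, MMP21 had 12 counts against 34 and MMP27 had 3 counts against 16, the ratio of MMP21 being 3.53 in favour of SSC PDGF- (exact 95% interval 1.78 to 7.49) and that of MMP27 6.65 (1.90 to 35.6). These intervals cover counting error alone, and by library the groups overlapped in both genes.

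Within each library the make-up of the MMP counts differed between the groups. MMP2 gave 36.2% to 40.2% of the counts of all 23 MMPs in SSC PDGF+ and 56.1% to 57.0% in SSC PDGF-. MMP1 gave 14.3% to 24.0% against 1.55% to 2.80%, and MMP9 gave 4.64% to 7.76% against 0.962% to 1.31%. The summed MMP level was 6615 to 7733 CPM with PDGF and 9465 to 11771 CPM without it, so the rise of MMP1 and MMP9 in CPM was smaller than the fall of MMP2 and MMP14. Per kilobase of exon, over all members, the order with PDGF was TIMP1 (1718 CPM per kb), MMP2 (857), MMP14 (657), MMP1 (629) and MMP9 (212), and without PDGF it was MMP2 (1862), TIMP1 (1714), MMP14 (1143), MMP3 (113) and MMP1 (102).

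**Figure D2:**
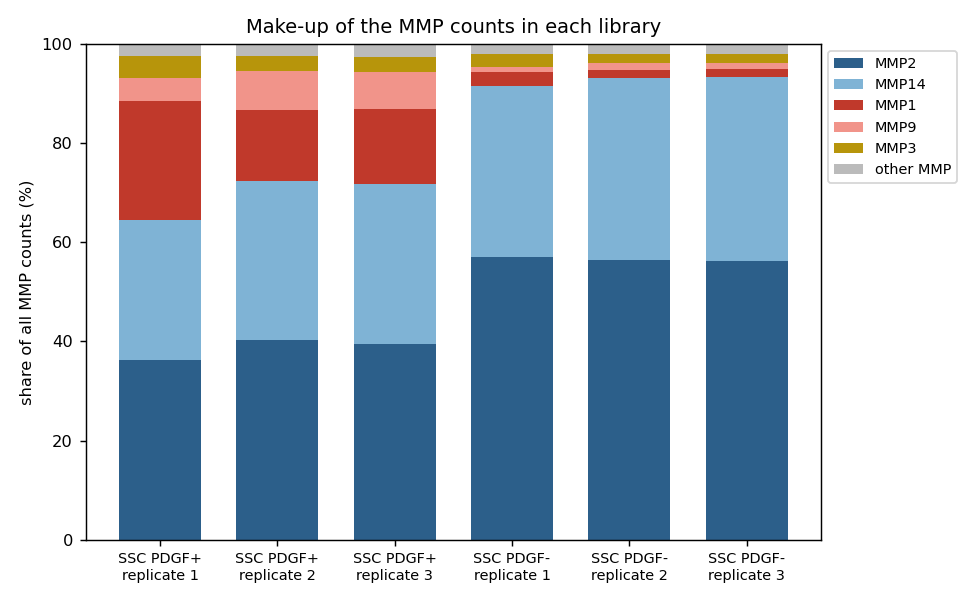
Share in percent of all MMP counts of each library taken by MMP2, MMP14, MMP1, MMP9, MMP3 and the other MMPs, drawn as stacked bars. MMP1 takes 14.3% to 24.0% in the SSC PDGF+ libraries and 1.55% to 2.80% in the SSC PDGF- libraries, and MMP2 takes 36.2% to 40.2% and 56.1% to 57.0%.

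On chromosome 14 of Mmul_10, 9 of the MMP genes lie within 437 kb in the order MMP7, MMP20, MMP27, MMP8, MMP10, MMP1, MMP3, MMP12 and MMP13. Of the 5 tested genes of this cluster, the neighbours MMP10 and MMP1 were higher with PDGF, MMP3 beside MMP1 and MMP13 were not called, and MMP7 at the other end was lower. The 9 genes summed to 1385 to 1931 CPM per library with PDGF and to 421 to 568 CPM without it, and without MMP1 the other 8 summed to 267 to 340 CPM against 243 to 302 CPM.

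The TIMPs bind active MMPs. TIMP1 was at 1112, 1522 and 1397 CPM with PDGF and at 947, 1487 and 1587 CPM without it. The groups overlapped, and the log2 fold change was 0.00 ± 0.21 (edgeR adjusted p = 0.992), with a difference of 0.23 within batch 1 and -0.08 within batch 2, and the sign turned with RLE or upper quartile factors. TIMP2, which also serves MMP14 in the activation of MMP2, was at 33.2, 43.6 and 41.8 CPM with PDGF and at 58.4, 70.6 and 65.6 CPM without it, with no overlap. It was called lower (log2 fold change -0.72 ± 0.16, edgeR adjusted p = 0.0198), a call lost when replicate 2 or 3 of either group was left out (adjusted p up to 0.0899). TIMP4 was at 9.86, 7.27 and 10.7 CPM against 10.5, 14.5 and 10.2 CPM and was not called (log2 fold change -0.33, edgeR adjusted p = 0.362). TIMP1 overlaps SYN1 and TIMP4 overlaps SYN2 on the opposite strand in Mmul_10, and whether counting used strand is not given in the sources used here. For each TIMP1 count there were 0.729 to 1.43 MMP1 counts with PDGF and 0.116 to 0.280 without it, 0.276 to 0.410 against 0.0939 to 0.101 MMP9 counts, and 2.04 to 2.15 against 4.16 to 5.70 MMP2 counts.

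**Figure D3:**
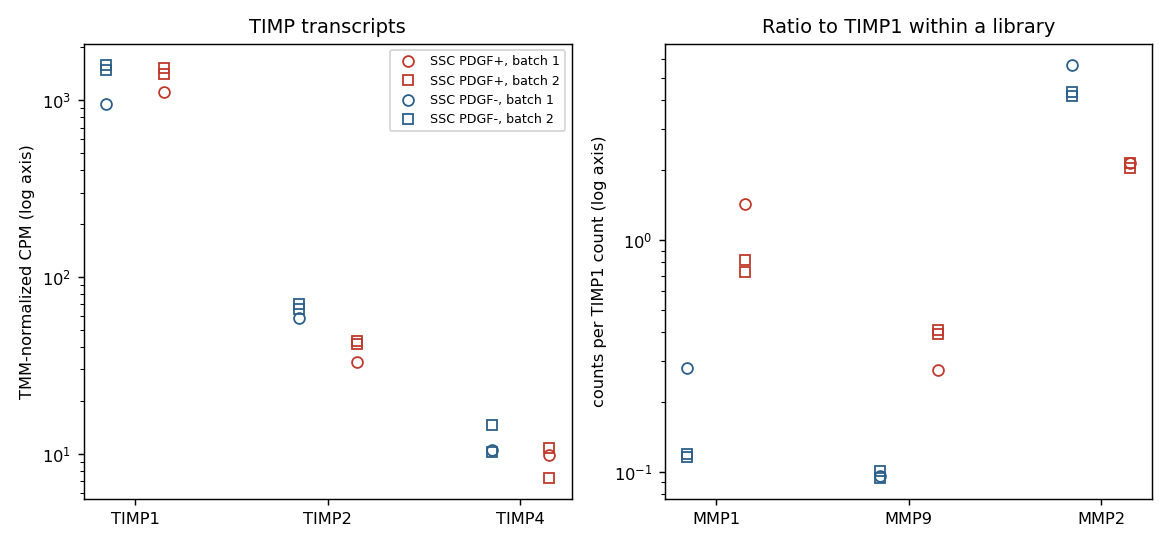
Left, TMM-normalized CPM of TIMP1, TIMP2 and TIMP4 in each library, and right, counts of MMP1, MMP9 and MMP2 per TIMP1 count of the same library, both on log axes, with circles for batch 1, squares for batch 2, red for SSC PDGF+ and blue for SSC PDGF-. TIMP1 overlaps between groups, while the 3 ratios do not.

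Of the 9 somatic ADAMs tested by edgeR 2 were called higher and none lower, a share of 22.2% near the 18.3% of all genes, with none lower at an unadjusted p under 0.05, by DESeq2 or by limma-voom. ADAM12, a protease that cleaves growth factor precursors and insulin-like growth factor binding proteins, was at 100, 105 and 101 CPM with PDGF and at 56.3, 51.9 and 56.7 CPM without it. The libraries of each group lay close together (log2 fold change 0.90 ± 0.13, edgeR adjusted p = 0.00287). ADAM19 was at 8.10, 12.7 and 14.1 CPM against 3.94, 6.71 and 5.39 CPM (log2 fold change 1.12 ± 0.29, edgeR adjusted p = 0.0332). That call was lost when any library other than SSC PDGF+ replicate 1 was left out, with an adjusted p of up to 0.111.

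The main sheddases were not called. ADAM10, which releases Notch and cadherin ectodomains, was at 90.3, 74.3 and 78.7 CPM against 79.3, 67.7 and 72.2 CPM, with overlap (log2 fold change 0.15 ± 0.14, edgeR adjusted p = 0.505). ADAM17, which releases tumour necrosis factor and ligands of the EGF receptor, was at 43.7, 39.3 and 38.8 CPM against 37.5, 32.9 and 28.3 CPM, without overlap (log2 fold change 0.30 ± 0.16, edgeR adjusted p = 0.233). With the replicate block both were called higher, at adjusted p = 0.0478 and 0.00701. ADAM15 was at 64.5, 89.8 and 98.9 CPM against 66.4, 104 and 100 CPM and was not called (log2 fold change -0.09 ± 0.23, edgeR adjusted p = 0.805). ADAM8, ADAM28 and ADAM33 were not called either, with log2 fold changes of 0.03, 0.43 and -0.18 and overlapping groups.

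ADAM9, a widely expressed sheddase, and ADAM32, known from the male germ line, carried the same count in each of the 6 libraries. Both read 231, 167 and 176 CPM with PDGF and 164, 142 and 136 CPM without it. In Mmul_10 the genes are neighbours on the same strand with 2525 bases between them, so these reads cannot be assigned to either. The log2 fold change was 0.38 ± 0.17 without a call (edgeR adjusted p = 0.153), and with the block both rows were called higher (adjusted p = 6.63e-06).

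For the 7 germ-cell and epididymal ADAMs the counts were otherwise near 0. The sperm surface genes ADAM2 and ADAM7 had no count, ADAM18 had 7 counts against 16, ADAM20 had 19 against 38 and ADAM30 had 4 against 4. The ratio in favour of SSC PDGF- was 2.49 for ADAM20 (exact 95% interval 1.40 to 4.58) and 2.85 for ADAM18 (1.11 to 8.19), again for counting error alone, and the groups of ADAM18 overlapped by library. By library ADAM20 was at 0.338, 0.626 and 0.451 CPM with PDGF and at 0.903, 1.82 and 0.784 CPM without it. ADAM21 was tested, at 1.62, 0.782 and 1.43 CPM against 1.48, 1.34 and 1.18 CPM with overlap (log2 fold change -0.06 ± 0.40, edgeR adjusted p = 0.936). None of the 2 tested rows was called lower by edgeR, and none was at an unadjusted p under 0.05 or called by DESeq2 or limma-voom. Of the adhesion ADAMs that lack protease activity, ADAM23 was not called (1.89, 0.938 and 1.43 CPM against 2.46, 2.59 and 1.76 CPM), ADAM11 had 35 counts in all and ADAM22 had 7.

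**Figure D4:**
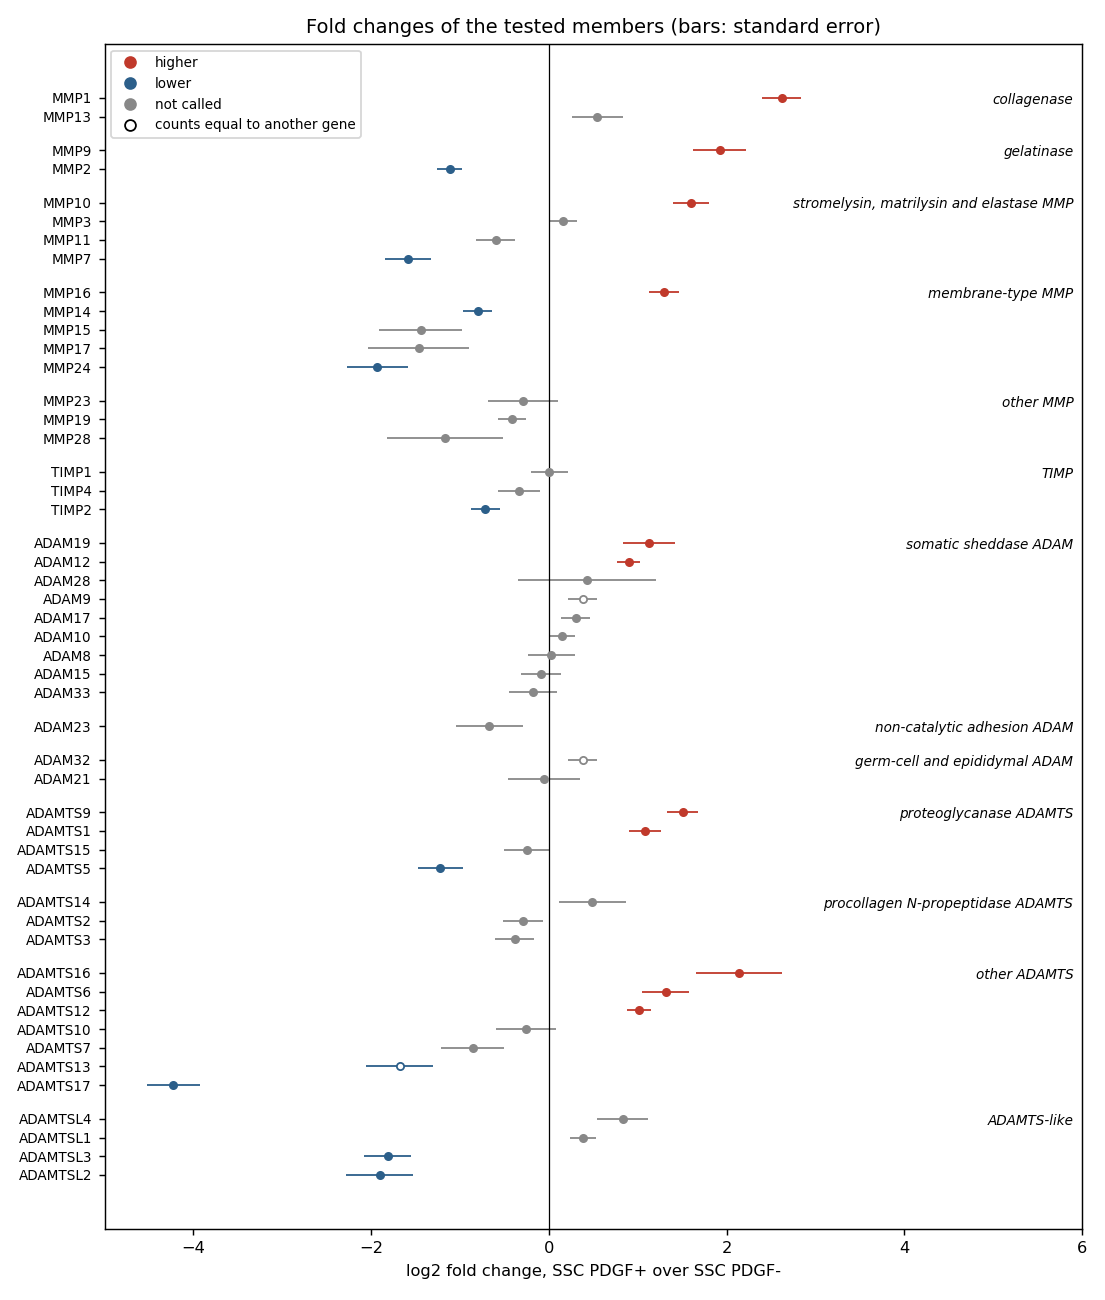
Log2 fold change (SSC PDGF+ over SSC PDGF-) of the 49 tested members by class, with bars of 1 standard error, red for called higher, blue for called lower, grey for not called and open points for genes with the counts of another gene. The estimates run from -4.23 for ADAMTS17 to 2.62 for MMP1, and both directions occur among MMPs and ADAMTS genes, but among the ADAMs the called genes are all higher.

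Among the ADAMTS proteases that cut proteoglycans, ADAMTS1, which cleaves versican and aggrecan, was at 386, 310 and 325 CPM with PDGF and at 199, 142 and 142 CPM without it. The groups did not overlap (log2 fold change 1.08 ± 0.18, edgeR adjusted p = 0.00488). ADAMTS9, which also cleaves versican, was at 17.6, 20.6 and 19.5 CPM against 7.06, 6.80 and 6.47 CPM (log2 fold change 1.50 ± 0.18, edgeR adjusted p = 0.00114). ADAMTS5, the aggrecanase of cartilage, went the other way, at 3.04, 3.75 and 3.98 CPM against 6.73, 8.24 and 10.2 CPM (log2 fold change -1.22 ± 0.25, edgeR adjusted p = 0.0130). The call for ADAMTS5 was lost without SSC PDGF+ replicate 2 or SSC PDGF- replicate 3 (adjusted p up to 0.0541). ADAMTS15 was not called, at 4.73 to 5.63 CPM against 4.50 to 7.15 CPM, and ADAMTS8 had 3 counts.

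The procollagen N-propeptidases ADAMTS2, ADAMTS3 and ADAMTS14, which trim fibrillar procollagens, were tested by edgeR without a call, none of them at an unadjusted p under 0.05 or called by DESeq2 or limma-voom. ADAMTS2 was at 133, 191 and 205 CPM with PDGF and at 160, 243 and 244 CPM without it. Its groups overlapped because replicate 1 was low in both, and the log2 fold change was -0.29 ± 0.22 (edgeR adjusted p = 0.394). With the block ADAMTS2 and ADAMTS3 were called lower, at adjusted p = 2.95e-05 and 0.00151. ADAMTS14 was at 3.58 to 5.26 CPM against 1.89 to 4.69 CPM.

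The lowest log2 fold change of all tested members was that of ADAMTS17, a protease tied in people to short stature and to the fibrillin matrix. It was at 0.473, 0.547 and 0.676 CPM with PDGF and at 11.4, 12.2 and 8.62 CPM without it, which is 7, 7 and 9 counts against 139, 127 and 88. The log2 fold change was -4.23 ± 0.30 (edgeR adjusted p = 0.000141), a fitted level 18.7 times as high without PDGF. The difference was -4.50 within batch 1 and -3.99 within batch 2. ADAMTS13, which cleaves von Willebrand factor, was at 0.945, 0.704 and 0.826 CPM against 2.87, 3.26 and 1.86 CPM (log2 fold change -1.68 ± 0.38, edgeR adjusted p = 0.0183). Its counts equal those of its neighbour CACFD1 in every library, with 561 bases between the genes, so the call cannot be assigned to ADAMTS13, and it was lost without SSC PDGF+ replicate 2 or 3 or SSC PDGF- replicate 2.

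The other ADAMTS genes called, ADAMTS6, ADAMTS12 and ADAMTS16, were higher with PDGF. ADAMTS12, which cleaves cartilage oligomeric matrix protein, was at 379, 332 and 336 CPM against 194, 162 and 162 CPM (log2 fold change 1.01 ± 0.14, edgeR adjusted p = 0.0021). ADAMTS6 was at 27.3, 21.0 and 21.8 CPM against 12.4, 9.58 and 6.17 CPM (log2 fold change 1.31 ± 0.27, edgeR adjusted p = 0.0122). ADAMTS16 was at 3.85, 4.22 and 5.41 CPM against 1.81, 0.383 and 0.784 CPM. The estimate was higher with PDGF (log2 fold change 2.14 ± 0.48, edgeR adjusted p = 0.0190), but the difference was 1.07 within batch 1 and 3.01 within batch 2, and the call was lost without SSC PDGF+ replicate 2 or 3 or SSC PDGF- replicate 3 (adjusted p up to 0.0755). ADAMTS7, a protease of cartilage oligomeric matrix protein and other matrix proteins, was at 34.8, 70.5 and 71.6 CPM with PDGF and 61.6, 131 and 129 CPM without it. Each batch showed the same difference (-0.82 and -0.87), and the gene passed with the block (adjusted p = 1.43e-10) but not without it (edgeR adjusted p = 0.132). ADAMTS10 was not called (log2 fold change -0.26, edgeR adjusted p = 0.623), and ADAMTS18 had 6 counts against 11. Without SSC PDGF- replicate 1 the members ADAMTS7, MMP11, MMP15 and MMP17 were called lower (edgeR adjusted p = 0.0185, 0.0247, 0.00833 and 0.0152).

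Among the ADAMTS-like genes, whose products bind matrix without cutting it, ADAMTSL2 was at 0.878, 1.33 and 1.80 CPM with PDGF and at 3.45, 5.65 and 5.98 CPM without it (log2 fold change -1.91 ± 0.38, edgeR adjusted p = 0.0112). ADAMTSL3 was at 3.85, 2.42 and 2.40 CPM against 11.6, 9.58 and 9.50 CPM (log2 fold change -1.81 ± 0.26, edgeR adjusted p = 0.00312). In both genes the lowest library without PDGF stood above the highest with it. ADAMTSL1 and ADAMTSL4 had positive log2 fold changes of 0.38 and 0.83 without a call (edgeR adjusted p = 0.114 and 0.0803), and both were called higher with the block (0.000285 and 1.37e-08). ADAMTSL4 was also called higher by DESeq2 without a block (adjusted p = 0.0284) and by edgeR without SSC PDGF+ replicate 1 (adjusted p = 0.0158). ADAMTSL5 was too low for the test, with 30 counts against 39.

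In many tested members replicate 1 lay on the same side of replicates 2 and 3 in both groups. It was below both in 22 of 49 members (44.9%), MMP2, MMP14, MMP9, TIMP1 and TIMP2 among them, and above both in 15 (30.6%), MMP1, MMP3 and ADAMTS1 among them. Over all 11539 tested genes these shares were 35.7% and 35.6%. Each of the 21 called members had the same sign within batch 1 as within batch 2, which follows from their groups not overlapping. Of these members 10 passed the threshold of 0.05 in every alternative fit in which they were tested. They were MMP1, MMP2, MMP7, MMP9, MMP10, MMP16, MMP24, ADAMTS9, ADAMTS17 and ADAMTSL3.

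**Figure D5:**
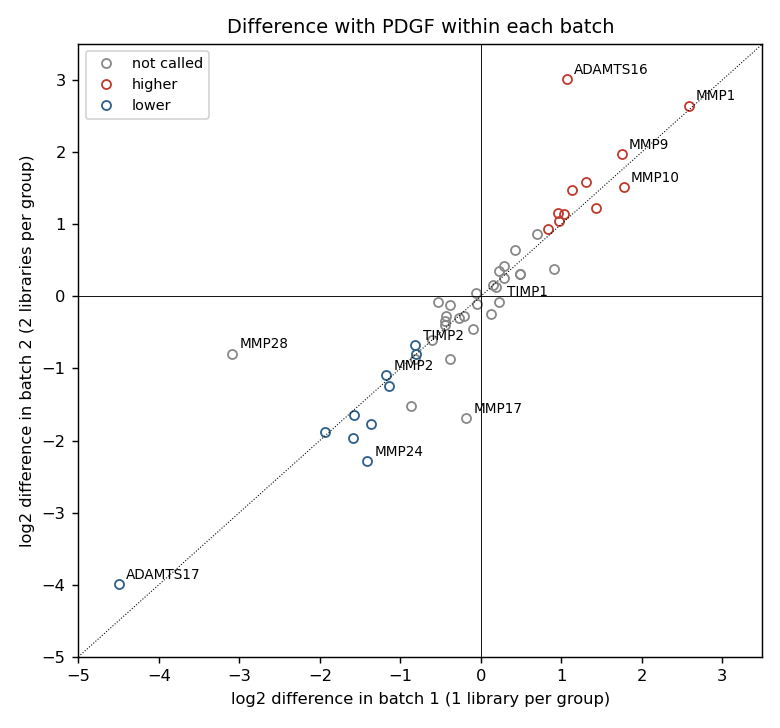
Log2 difference (SSC PDGF+ minus SSC PDGF-) of each tested member within batch 1 (x axis, 1 library per group) and within batch 2 (y axis, 2 libraries per group), with the dotted line marking equal differences. The 21 called members lie in the quadrants of equal sign, where groups without overlap must fall. ADAMTS16 lies farthest from the line among them, at 1.07 and 3.01.

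Genes that act on these proteases were followed in 4 hand-written lists, of which 53 of 63 genes were tested, 13 being higher and 7 lower, which is 37.7% called against 18.3% of all genes (7.61% higher, 10.7% lower). With the replicate block 26 were higher and 17 lower (81.1% against 60.1% of all genes). Of 15 tested activators and co-factors 4 were higher and 2 lower, 40.0% beside the 18.3% of all genes. The urokinase receptor PLAUR, which gathers plasmin formation at the cell surface, was at 95.9, 102 and 99.2 CPM against 27.3, 27.6 and 27.5 CPM (log2 fold change 1.85 ± 0.13, edgeR adjusted p = 0.000144), and the plasminogen activator PLAT and the proprotein convertase PCSK7 rose by log2 fold changes of 0.68 and 0.63. Among tetraspanins that partner ADAM10, TSPAN5 was higher (1.20 ± 0.13) and TSPAN33 and TSPAN15 were lower (-3.56 ± 0.53 and -1.38 ± 0.27, edgeR adjusted p = 0.00326 and 0.0102). The TSPAN14 and TSPAN17 rows were not called (0.07 and -0.18, edgeR adjusted p = 0.818 and 0.477). Their counts equal those of SH2D4B and EIF4E1B, so these reads cannot be assigned to them.

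Of 9 tested inhibitors and clearance receptors, 2 were higher and 1 lower, 33.3% beside the 18.3% of all genes. TFPI2, a matrix inhibitor of plasmin and other serine proteases, was at 150, 142 and 147 CPM against 24.6, 25.6 and 25.1 CPM (log2 fold change 2.54 ± 0.13, edgeR adjusted p = 5.68e-05). SERPINE2 was lower (log2 fold change -0.61 ± 0.14). RECK, a membrane-anchored MMP inhibitor, was at 16.2, 17.9 and 17.4 CPM against 13.6, 10.3 and 11.8 CPM, without overlap and without a call (0.52 ± 0.18, edgeR adjusted p = 0.0790, and 0.00408 with the block).

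Of 17 tested substrates 5 were higher and 3 lower, 47.1% beside the 18.3% of all genes. The chains of type IV collagen, the basement membrane collagen, were higher, COL4A1 at 423, 409 and 406 CPM against 108, 101 and 94.5 CPM (log2 fold change 2.03 ± 0.12, edgeR adjusted p = 8.05e-05) and COL4A2 with a log2 fold change of 1.27 ± 0.21. Versican (VCAN) was higher by 0.96 ± 0.17, and the Notch receptors NOTCH1 and NOTCH2, which ADAM10 cleaves, by 1.32 ± 0.36 and 0.78 ± 0.15. COL3A1, a fibrillar collagen, was lower at 2757, 2868 and 2931 CPM against 6258, 5848 and 5809 CPM (-1.07 ± 0.10, edgeR adjusted p = 0.000421), as were COMP (-2.56 ± 0.47) and E-cadherin, CDH1 (-2.84 ± 0.67). The other fibrillar chains COL1A1 and COL1A2 had positive log2 fold changes of 0.60 and 0.18 without a call (edgeR adjusted p = 0.245 and 0.342), and both were called higher with the block. Of 12 tested other matrix proteases 2 were higher and 1 lower, 25% beside the 18.3% of all genes. PAPPA (1.31 ± 0.18) and the cathepsin CTSL (1.16 ± 0.14) were higher and FAP, the fibroblast activation protein, was lower (-1.08 ± 0.16). The calls of NOTCH1 and PCSK7 were lost when any library other than SSC PDGF+ replicate 1 was left out (adjusted p up to 0.13 and 0.153), and those of PLAT and SERPINE2 when replicate 2 or 3 of either group was (up to 0.114 and 0.0939). The call of CDH1 was lost without SSC PDGF+ replicate 1 or SSC PDGF- replicate 2 or 3 (up to 0.0689), and that of NOTCH2 without SSC PDGF+ replicate 2 (0.0502).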

How the data were processed

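Expression was measured by bulk RNA sequencing in 6 libraries. The authors deposited expected counts per gene without normalization. The submitters' processing notes name fastp, HISAT2 2.1.0, SAMtools, featureCounts 2.0.1 and the builds Mmul_10 and Mmul_8.0.1, without saying which build gave the counts, so no coordinates are given. Of the values 34, in 13 genes, were not whole, none in a member, so values were rounded to whole numbers. The fixed plan assumed whole counts.

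The members, lists and tests were chosen with earlier results of these data known. Genes passed filterByExpr by group, TMM factors were computed, and SSC PDGF+ was compared with SSC PDGF- by the quasi-likelihood test of edgeR 4.0.16 under R 4.3.3, without a block, at an adjusted p under 0.05. A standard error is the absolute log2 fold change over the square root of F. Within-batch differences add 0.5 counts. Ratios of untested genes carry exact binomial 95% intervals. Exon lengths and neighbours come from RefSeq Mmul_10. Among genes with at least 20 counts, 405 sets (850 genes) had equal counts in all 6 libraries.

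Same-numbered libraries share a batch by label, and their deviations correlated with r = 0.73, 0.35 and 0.37, so the replicate block was run as a paired alternative. Differently numbered libraries of batch 2 correlated as much (r = 0.36 and 0.39), so the pairing is by batch and not by number within batch 2. Labels do not say whether replicates are separate cultures, so p-values measure the spread between these libraries, which may be technical.

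Values by library are given for up to 10 called members in each direction with the largest change, the 12 most abundant members, every TIMP, ADAM10, ADAM17, MMP2, MMP14, RECK and germ-cell ADAMs with at least 20 counts. Library values of ADAM12, ADAM23, MMP3 and ADAMTS7 and of single list genes, where given beyond this, were chosen after their values were seen. Alternatives were RLE, upper quartile and no factors, other count filters and thresholds, DESeq2 1.42.0, limma-voom (limma 3.58.1), batch as a term, batch 2 alone, replicates 2 and 3 summed, rows with equal counts left out, and each library left out. The fit was tested on simulated counts. Tables were made in Python 3.11.15 with scipy 1.17.1 and pandas 2.3.3, and plots with matplotlib 3.10.9. The values of 1 gene counted in the lists are not reported here.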

Additional observations from a re-analysis of the deposited data

How the results depend on the processing

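All 21 called members kept their sign in every setting, which adds little because their groups did not overlap. Of them 15 passed the threshold with each library left out in turn. Over 50 genes with values under alternatives, 790 comparisons with the edgeR result kept direction and side of the threshold, 63 fell below it, 28 passed it newly and 13 changed sign. The replicate block, a pairing by batch, gave 18 members higher and 19 lower (17 and 19 outside the germ-cell ADAMs), 26 and 17 regulators and substrates, and 3587 and 3347 genes. Batch as a term gave 18 and 18, 17 and 18, 26 and 17, and 3604 and 3387. Batch 2 alone gave 17 and 17 (17 lower outside the germ-cell ADAMs), 23 and 15, and 3041 and 3085. Replicates 2 and 3 summed gave 5 and 5, 5 and 5, 7 and 4, and 206 and 487, with fewer libraries, and with batch as a term 18 and 19, 17 and 19, 26 and 17, and 3669 and 3420. An adjusted p under 0.01 left 5 members lower, also 5 outside the germ-cell ADAMs, 4 regulators lower, and 358 and 544 genes, and a log2 fold change over 1 left 393 genes higher. Regulators lower numbered 4 with at least 10 counts in every library and 11 with DESeq2. Each library left out gave 435 to 1284 genes higher and 726 to 1726 lower, with the largest drops without SSC PDGF+ replicate 2 or 3 or SSC PDGF- replicate 2 or 3 and the largest rise without SSC PDGF- replicate 1, and 9 to 12 members higher and 7 to 14 lower. No germ-cell ADAM was called lower in any setting, but few could be. The main edgeR fit tested only ADAM21 and the ADAM32 row, whose reads cannot be assigned to ADAM32. The other germ-cell ADAMs had no count or were too low for that fit. TIMP1 turned to -0.0037 with RLE factors, -0.059 with upper quartile factors, -0.031 with at least 10 counts, -0.0037 with DESeq2, -0.093 in batch 2 and between -0.21 and 0.15 with a library left out. ADAM15 turned positive in some of these, between -0.28 and 0.078, and ADAM21 between -0.26 and 0.20, and 0.000629 with replicates summed. The cause of these changes was not tested. Members under about 1 CPM rest on few counts.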
